A study of Homo sapiens with 9 samples.

Results

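The 10 genes described here encode the LIM-only protein LMO2 and the proteins it is built into complexes with. They are the LIM-only proteins LMO2 and LMO4, the LDB adaptors LDB1 and LDB2, the SSBP adaptors SSBP2 and SSBP3, the E proteins TCF3 and TCF12, and the basic helix-loop-helix (bHLH) factors TAL1 and LYL1. They were chosen by symbol, for their known roles, from the 56809 genes of the deposited count table. RNA was sequenced in bulk from MDA-MB-468, an established human breast adenocarcinoma line. All cells carried the lentiviral hairpin vector pSicoR, which was empty in the control group and expressed a short hairpin named for LMO2 in the others (shLMO2-1 or shLMO2-2). Each of the 3 groups had 3 libraries. Both hairpin groups were compared with the same 3 control libraries. Nothing in the labels says whether the libraries of a group came from separate cultures, so p-values measure the spread between libraries, which may be technical.

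LMO2 has LIM domains but no DNA-binding domain of its own. In blood stem cells and endothelium it is held by LDB1 and bridges a bHLH pair, an E protein such as TCF3 with TAL1 or LYL1, to a GATA factor, so that E-box and GATA motifs are bound together. LDB1 self-associates through its own domain and binds LIM domains through another, SSBP proteins bind LDB1 and shield it from degradation, and ID proteins pair with E proteins and keep them off DNA. LMO4 binds the same LDB1 surface and is the LIM-only protein best known from mammary epithelium.

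Library totals lay between 15494486 and 23069456 estimated counts. In a principal component analysis, control replicate 1 lay at -42.6 on the first component (26.8% of the variance), beyond the other 8 libraries at -20.5 to 28.9. Markers of the labelled cell type were present: the 8 epithelial markers examined were all at a median of at least 1 CPM (counts scaled to the library's TMM-adjusted total). None of the 7 haematopoietic markers reached that level and CD3E and HBB were at 0 in every library, while 2 of 6 endothelial and 1 of 6 fibroblast markers reached it. Summed endothelial marker levels were 7.18 to 14.1 CPM in control, 13.6 to 19.4 in shLMO2-1 and 8.63 to 11.3 in shLMO2-2 libraries. KDR was the largest part, with group means of 6.018, 11.83 and 7.435 CPM. Summed epithelial levels were 14600 to 15000, 16700 to 17800 and 16200 to 18200 CPM. The epithelial markers did not move together. In shLMO2-1 cells EGFR (mean 5471 CPM in control, 7507 in shLMO2-1), KRT7, KRT8, KRT18 and KRT19 had higher means. KRT5 (3203 and 2648 CPM), EPCAM and CDH1 had lower means there. The part of these shifts in the results below was not tested. In bulk RNA, fewer cells expressing a gene and less of its RNA per cell cannot be told apart.

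SSBP3 and TCF3 were the only partners, among the 8 members tested, that passed the test in any of the 4 contrasts. The 250 bases upstream of their first RefSeq start sites (GRCh38.p14, both on the minus strand, at chr1:54413491-54413740 and chr19:1652616-1652865) are shown because the E-box, CANNTG with N any base, is the motif that E proteins bind. Capitals mark each CANNTG, and both windows are written 5′ to 3′ on the gene's strand.
SSBP3: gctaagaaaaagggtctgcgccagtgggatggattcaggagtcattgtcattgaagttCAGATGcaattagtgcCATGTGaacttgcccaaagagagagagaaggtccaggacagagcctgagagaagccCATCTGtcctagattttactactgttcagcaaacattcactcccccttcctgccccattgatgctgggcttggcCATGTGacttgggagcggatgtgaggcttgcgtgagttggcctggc
TCF3: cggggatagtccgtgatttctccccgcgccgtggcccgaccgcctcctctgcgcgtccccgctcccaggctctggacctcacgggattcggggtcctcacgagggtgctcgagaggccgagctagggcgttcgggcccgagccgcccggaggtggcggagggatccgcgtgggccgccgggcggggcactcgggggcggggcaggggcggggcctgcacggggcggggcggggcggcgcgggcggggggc
The SSBP3 window held 4 CANNTG matches and had a GC content of 51.6%, against 0 matches and 79.6% for TCF3. A second SSBP3 window, at chr1:54406395-54406644, held 0 matches and had a GC content of 77.6%. Neither printed window held GATAA, a form of the motif that GATA factors bind, on either strand. Other forms, such as the GATAG near the start of the TCF3 window, were not searched for. RefSeq entries were found for 8 of the 10 members (not LMO2 or LDB2), with 18 windows in all, of which 6 held CANNTG and 2 held GATAA. These windows are not all separate: those of SSBP2 at chr5:81750750-81750999 and chr5:81750749-81750998 nearly coincide. Many also overlap annotated untranslated regions, so they are not all purely upstream sequence. Among all 35116 windows of the same length, 61.8% held CANNTG, 20.4% held GATAA, and the median GC content was 58%. A match describes the letters of a window and is not a bound site.

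The members spanned a wide range of levels in control cells. Levels are compared between genes per length, in TPM-like units (counts over the length of each gene's merged exons in GENCODE 29, scaled to the same sum in every library). LMO4 was at 131.7 ± 7.99 TPM (SD, n = 3) and TCF3 at 129.8 ± 3.57 TPM, and these neighbours did not differ beyond their spread. SSBP3 followed at 71.15 ± 2.53, LDB1 at 39.94 ± 2.16, SSBP2 at 3.362 ± 0.0895 and LMO2 at 1.255 ± 0.951 TPM. By mean control level, 1449 of the 56809 genes ranked above LMO4, 1465 above TCF3, 2658 above SSBP3, 4514 above LDB1, 11747 above SSBP2 and 13832 above LMO2. TCF12, TAL1, LDB2 and LYL1 were at or next to 0. Thus the LIM-only, adaptor and E protein roles each had an abundant member, and the bHLH partner role had none among TAL1 and LYL1.

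**Figure D1:**
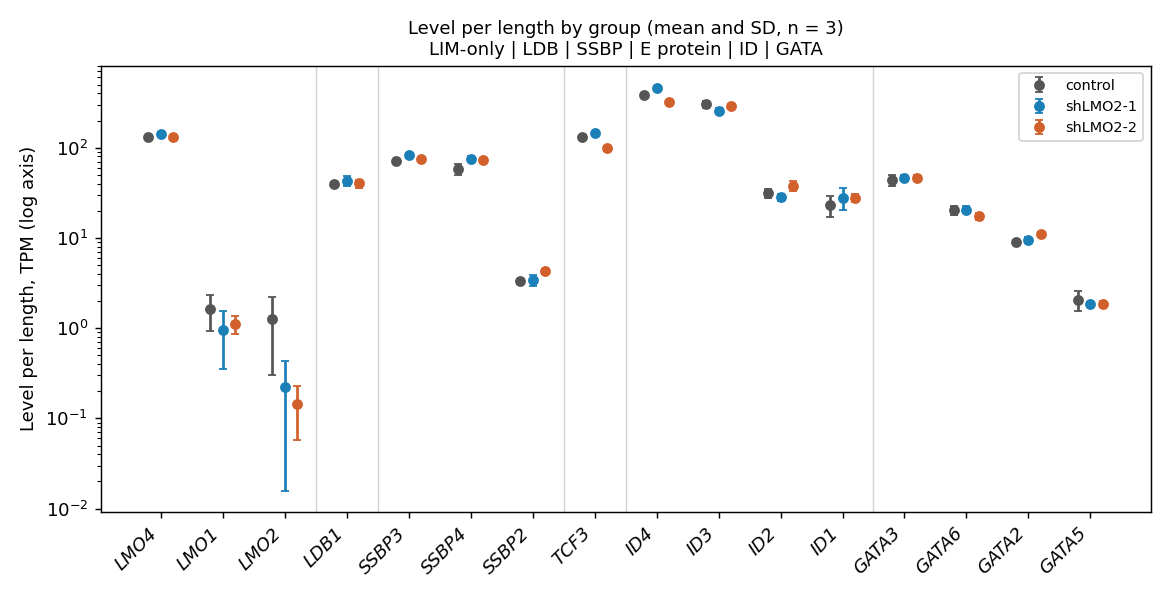
Level per length (TPM, log axis) of the members with measurable levels and of related LIM-only, SSBP, ID and GATA genes, as the mean (points) and SD (bars) of the 3 libraries of each group. LMO4 and TCF3 are the highest members in control cells, and LMO2 in control cells is near 1 TPM, about the level of LMO1.

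With the longest transcript of each gene in place of merged exons, TCF3 (127.5 TPM) stood above LMO4 (102.1 TPM). With the median transcript length the order of the 6 members was that given above. Within a library, LMO4 exceeded LDB1 by a ratio per length of 3.04 to 3.73 in control, 3.16 to 3.70 in shLMO2-1 and 3.16 to 3.35 in shLMO2-2 libraries. SSBP3 exceeded LDB1 by 1.74 to 1.82, 1.84 to 2.12 and 1.68 to 2.05. TCF3 exceeded LDB1 by 3.15 to 3.35 in control and 3.10 to 3.79 in shLMO2-1 libraries but by 2.26 to 2.58 in shLMO2-2 libraries, below every other library. The ratios depend on the length used: with median transcript lengths the ratio of control means was 8.88 for LMO4 over LDB1, 6.13 for SSBP3 over LDB1 and 7.97 for TCF3 over LDB1, against 3.30, 1.78 and 3.25 with merged exons. LMO4 was 63.4 to 433 times as abundant as LMO2 in control libraries with merged exons (ratio of means 105, or 272 with median transcript lengths), and it held 98.7% to 99.9% of all LMO1 to LMO4 counts in each of the 9 libraries.

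LMO2 (ENSG00000135363.11, chr11:33858576-33892289, minus strand, GRCh38) is the hairpins' named target. Its estimated counts were 4, 35 and 19 in control replicates 1 to 3, 2, 1 and 6 in shLMO2-1, and 1, 4 and 3 in shLMO2-2. In CPM these were 0.232, 1.79 and 1.00 in control, 0.113, 0.0586 and 0.396 in shLMO2-1, and 0.0435, 0.186 and 0.135 in shLMO2-2. The shLMO2-2 libraries all lay below the controls, whereas shLMO2-1 replicate 3 lay above control replicate 1. Control replicate 1 and shLMO2-2 replicate 2 both had 4 counts, so their order in CPM rests on library size. Their 95% Poisson intervals, 0.0632 to 0.594 and 0.0506 to 0.475 CPM, overlapped. Pooled over a group, LMO2 had 58 counts in control (1.06 CPM of plain totals, 95% Poisson interval 0.806 to 1.37), 9 in shLMO2-1 (0.179 CPM, 0.0818 to 0.339) and 8 in shLMO2-2 (0.118 CPM, 0.051 to 0.233). These intervals cover counting error only.

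LMO2 fell in shLMO2-2 cells by 3.02 on the log2 scale (SE 0.82, 95% interval -4.82 to -1.22), with an adjusted p of 0.0443 by edgeR's quasi-likelihood test with Benjamini-Hochberg adjustment, the source of each adjusted p below. In shLMO2-1 cells the difference was -2.44 (SE 0.81, interval -4.23 to -0.66, adjusted p = 0.091), which did not pass. With both hairpins averaged LMO2 fell by 2.73 (SE 0.66, adjusted p = 0.0217). The hairpins differed from each other by -0.58 (interval -2.88 to 1.73, adjusted p = 0.918). The shLMO2-2 call was lost in limma-voom (adjusted p = 0.0929), in the fit of only the groups compared (0.062), and without control replicate 2 (-2.32, 0.139), control replicate 3 (-3.03, 0.103), shLMO2-1 replicate 1 (-3.02, 0.0622) or 2 (-3.02, 0.0626), or shLMO2-2 replicate 1 (-2.63, 0.132), 2 (-3.44, 0.102) or 3 (-3.11, 0.129). The call for the mean was lost when control replicate 2 (-2.03, 0.114), control replicate 3 (-2.74, 0.0678) or the second shLMO2-1 library (-2.52, 0.0521) was left out, and the shLMO2-1 difference passed without control replicate 1 (-2.90, 0.0269). Annotated AC132216.1, which overlaps LMO2, had 0 counts.

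LMO4 (ENSG00000143013.12, chr1:87328468-87348923, plus strand) competes with LMO2 for LDB1. It was at 188.4, 213.3 and 185.8 CPM in control, 226.4, 218.9 and 215.1 in shLMO2-1, and 218.7, 200.7 and 199.7 in shLMO2-2 libraries. All shLMO2-1 libraries lay above the controls and the shLMO2-2 libraries overlapped them. The differences did not pass the test: 0.17 (SE 0.07, interval 0.02 to 0.32, adjusted p = 0.16) in shLMO2-1 and 0.08 (interval -0.08 to 0.23, adjusted p = 0.544) in shLMO2-2 cells on the log2 scale. Of the other LIM-only genes, LMO1 had 2 to 18 counts per library and differences of -0.74 and -0.48 (adjusted p = 0.484 and 0.635), and LMO3 had 0 to 4 counts.

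**Figure D2:**
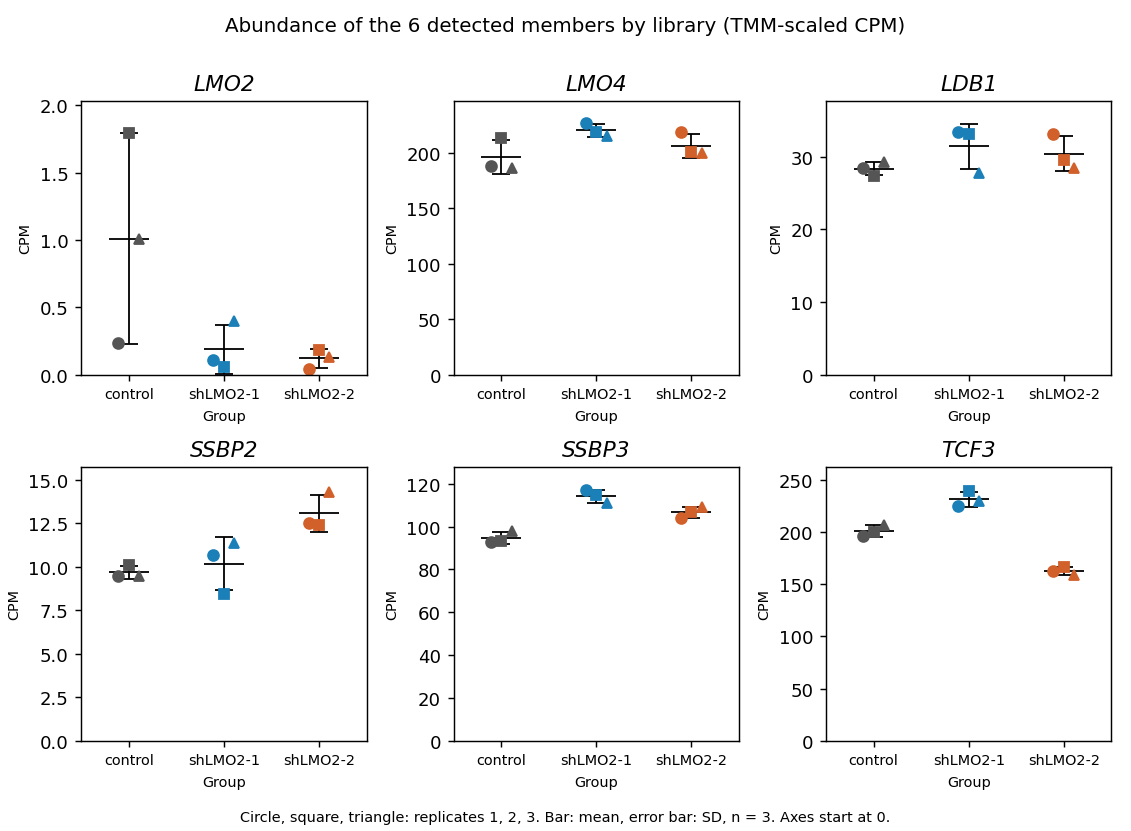
CPM of the 6 members with measurable levels in each library (points, 3 per group), with the group mean and SD as bars; each panel has its own scale. TCF3 is highest in the shLMO2-1 and lowest in the shLMO2-2 libraries with no overlap between the groups, SSBP3 is above control in all 6 hairpin libraries, and LMO2 varies most among the controls.

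Among the adaptors, LDB1 (ENSG00000198728.10, chr10:102107560-102120453, minus strand) is the scaffold on which the complex assembles. It was at 28.5, 27.4 and 29.2 CPM in control, 33.4, 33.2 and 27.8 in shLMO2-1, and 33.1, 29.6 and 28.5 in shLMO2-2 libraries. The groups overlapped. The log2 differences were 0.15 (interval -0.06 to 0.36, adjusted p = 0.378) and 0.10 (interval -0.11 to 0.31, adjusted p = 0.566). LDB2, the other LDB gene, had 0 counts in all 9 libraries, which over all libraries allows up to 0.0174 CPM (3 counts of the total).

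SSBP3 (ENSG00000157216.15, chr1:54225432-54413479, minus strand) stabilises LDB1. It was at 92.9, 93.3 and 98.1 CPM in control, 117, 114.6 and 110.8 in shLMO2-1, and 104.2, 106.6 and 109.3 in shLMO2-2 libraries. All 6 hairpin libraries lay above all controls, and the shLMO2-2 libraries lay below the shLMO2-1 libraries. SSBP3 rose in shLMO2-1 cells by 0.27 on the log2 scale (1.2-fold, SE 0.06, interval 0.14 to 0.40, adjusted p = 0.018). In shLMO2-2 cells the difference of 0.17 (SE 0.06, interval 0.04 to 0.30, adjusted p = 0.0918) did not pass. With both hairpins averaged it rose by 0.22 (SE 0.05, adjusted p = 0.0179), and the difference between hairpins of -0.10 (interval -0.22 to 0.03, adjusted p = 0.642) did not pass. The shLMO2-1 call was lost in the fit of only the groups compared (0.26, adjusted p = 0.0591) and without control replicate 2 (0.26, 0.0525), shLMO2-1 replicate 1 (0.25, 0.0686) or shLMO2-1 replicate 2 (0.26, 0.0694), and the call for the mean without control replicate 2 (0.21, 0.0545). MRPL37 overlaps SSBP3 and had up to 5416 counts, so reads from the shared stretch may be assigned to either gene. SSBP3-AS1, antisense to it, had up to 6 counts.

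SSBP2 (ENSG00000145687.16, chr5:81413021-81751797, minus strand), the second SSBP member, was at 9.45, 10.1 and 9.46 CPM in control, 10.7, 8.44 and 11.3 in shLMO2-1, and 12.5, 12.4 and 14.3 in shLMO2-2 libraries. The shLMO2-2 libraries lay above the other 6. The difference in shLMO2-2 cells was 0.43 on the log2 scale (SE 0.13, interval 0.15 to 0.72, adjusted p = 0.0643) and missed the threshold, but it passed in DESeq2 (0.43, adjusted p = 0.0437). In shLMO2-1 cells it was 0.07 (interval -0.22 to 0.36, adjusted p = 0.806), and between hairpins 0.36 (interval 0.08 to 0.65, adjusted p = 0.333). Per length, SSBP3 exceeded SSBP2 by 20 to 22.4 times in control, 21.1 to 29.3 in shLMO2-1 and 16.5 to 18.6 in shLMO2-2 libraries with merged exons, and the ratio of control means was 21.2, or 11.2 with median transcript lengths.

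TCF3 (ENSG00000071564.14, chr19:1609290-1652605, minus strand) encodes the E proteins E12 and E47, which bind E-boxes as pairs with other bHLH proteins. It was at 196, 200.1 and 207.3 CPM in control, 225.2, 239.6 and 229.9 in shLMO2-1, and 163, 166.8 and 158.9 in shLMO2-2 libraries. The 3 groups did not overlap: every shLMO2-1 library lay above, and every shLMO2-2 library below, every control. TCF3 fell in shLMO2-2 cells by 0.30 on the log2 scale (0.81-fold, SE 0.06, interval -0.43 to -0.18, adjusted p = 0.00823). In shLMO2-1 cells it rose by 0.20 (1.15-fold, SE 0.06, interval 0.08 to 0.32, adjusted p = 0.0457).

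The direct difference of shLMO2-2 from shLMO2-1 was -0.51 for TCF3 (0.703-fold, SE 0.06, interval -0.63 to -0.39, adjusted p = 0.00154), and 14 of the tested genes had a smaller p in that contrast. Of the 14711 genes tested, 5 (0.034%) passed in opposite directions against control, and TCF3 was among them. The fall in shLMO2-2 cells (-0.35 to -0.28, adjusted p at most 0.0395) and the difference between hairpins (-0.53 to -0.49, adjusted p at most 0.0177) passed in all 19 alternative fits. The rise in shLMO2-1 cells did not: it was lost with upper-quartile scaling (0.19, adjusted p = 0.0617) and scaling by total counts (0.17, 0.0861). It was also lost with no filter, where all genes with any count were kept (0.20, 0.12), and in a fit limited to the groups compared (0.20, 0.106). The call was lost as well with each of the 9 libraries left out in turn (0.17 to 0.23, adjusted p 0.0658 to 0.166). An exact permutation test of single genes, 3 libraries against 3 and two-sided, cannot go below p = 0.1, which TCF3 and SSBP3 reached in each of the 3 pairwise comparisons. SSBP2 reached p = 0.1 in both comparisons with shLMO2-2, LMO2 only between shLMO2-2 and control, and LMO4 only between shLMO2-1 and control in this exact permutation test. For LMO2 this rests on the order of control replicate 1 and shLMO2-2 replicate 2, which had 4 counts each.

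The other E proteins were nearly absent from the counts. TCF12 (chr15:56918623-57299281, plus strand), a broadly expressed E protein, had 0, 1 and 1 counts in control and 0 in all hairpin libraries, and TCF4 had 0 to 2 counts. TCF3 thus held 99.9% to 100% of the counts of these 3 E protein genes in every library. Neighbours of TCF12 on chromosome 15, chosen after its values were seen, were counted: ZNF280D had 231.4 to 341.7, MNS1 58.7 to 106.8 and CGNL1 61 to 115 counts per library. Whether the TCF12 values reflect its RNA or its quantification was not tested.

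TAL1 (chr1:47216290-47232220, minus strand), the bHLH partner of E proteins in blood stem cells and the red lineage, had 1, 1 and 0 counts in control and 0 in the hairpin libraries. LYL1 (chr19:13099033-13103161, minus strand), its close relative in blood, had 0 counts in all 9 libraries, as had LDB2. A count of 0 allows 0.13 to 0.194 CPM in single libraries and 0.0174 CPM over all 9. At this depth no change in TAL1, LYL1, LDB2 or TCF12 was detectable, and no fold change is given.

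**Figure D3:**
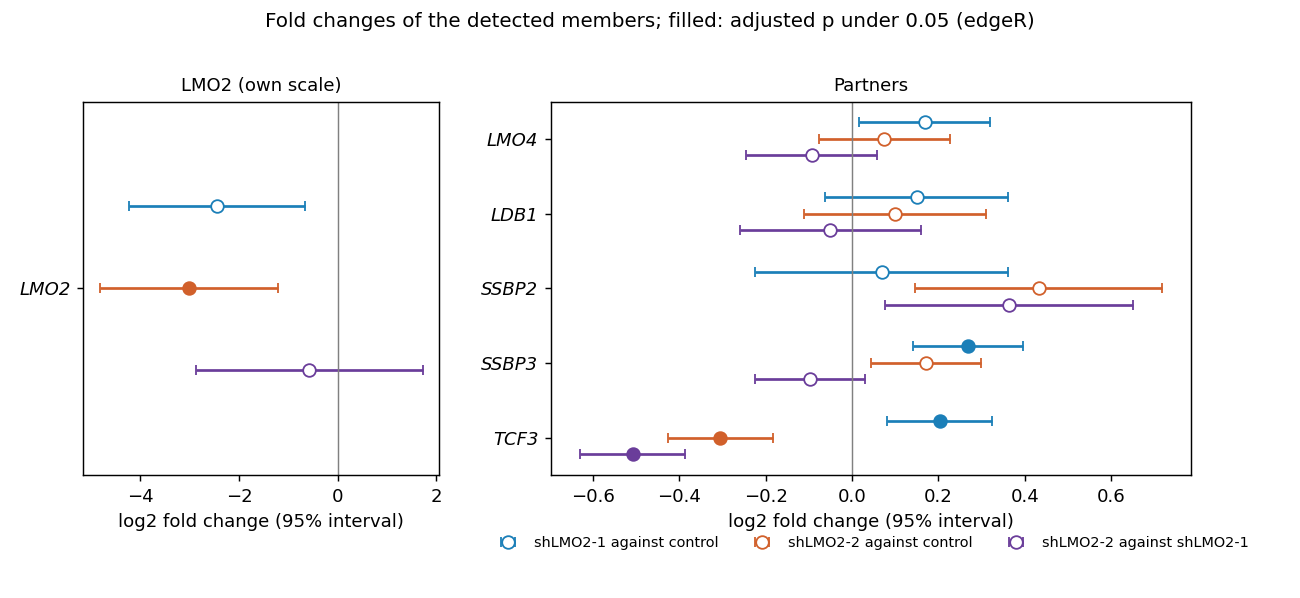
Log2 fold changes with 95% intervals of the members with measurable levels, for each hairpin against control and between hairpins (LMO2 on its own scale). The TCF3 intervals lie on opposite sides of 0 for the 2 hairpins, the SSBP3 intervals lie above 0 for both, and the LMO2 intervals are the widest.

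Members were counted over the 8 tested (5 passed the filter on low counts, and LMO2, TCF12 and TAL1 were added back). TCF12 and TAL1, at 0 to 1 counts per library, had too few counts to be called or to separate. The shares of all genes are over 14711 genes, of which 14708 passed the filter. In shLMO2-1 cells 2 members rose and 0 fell, where 8.45% of all tested genes were called (4.55% higher, 3.9% lower). In shLMO2-2 cells 0 rose and 2 fell, where 8.98% were called (4.94% higher, 4.04% lower). With both hairpins averaged 1 rose and 1 fell, where 12.4% were called (6.46% higher, 5.93% lower). Between hairpins 0 rose and 1 fell, where 0.768% were called (0.347% higher, 0.421% lower). Groups did not overlap for 3 members in shLMO2-1, all higher than control, where 28.3% of all genes did not overlap (14% higher, 14.3% lower). They did not overlap for 4 members in shLMO2-2, 2 higher and 2 lower (29.9% of genes, 15.3% higher and 14.5% lower). The lower members included LMO2, whose separation rests on library size between libraries of equal count. With the 6 hairpin libraries against the controls this held for 1 member, which was higher (16.7% of genes, 8.12% higher and 8.59% lower). Between hairpins it held for 3 members, 1 higher and 2 lower (18.1% of genes, 8.97% higher and 9.12% lower). Without control replicate 1, the library that stood apart, the called members were LMO2 (-2.90, adjusted p = 0.0269) and SSBP3 (0.25, 0.0294) in shLMO2-1, LMO2 (-3.48, 0.0144) and TCF3 (-0.33, 0.00686) in shLMO2-2, and TCF3 between hairpins (-0.51, 0.000707), while TCF3 in shLMO2-1 was not (0.18, 0.0822). With so few members these counts describe the set and do not set it apart.

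A further 88 genes of the complex, its inhibitors, its DNA-binding partners, cofactors and targets were examined, of which 49 were tested. In shLMO2-1 cells 3 rose and 1 fell (median log2 difference 0.109, all genes 0.001), in shLMO2-2 cells 3 rose and 2 fell (median -0.003, all genes 0), with both hairpins averaged 3 rose and 3 fell (0.037, all genes -0.002), and between hairpins 1 fell (-0.105, all genes -0.001). The shares of all tested genes called were 8.45%, 8.98%, 12.4% and 0.768% in these contrasts, and the shares of the 49 against control were close to them. Among the 5 tested LIM-homeodomain genes, whose proteins also bind LDB1, LMX1B alone was called. It was at 13.28, 11.17 and 13.48 CPM in control, 20.64, 22.68 and 20.18 in shLMO2-1, and 20, 21.31 and 20.53 in shLMO2-2 libraries. LMX1B thus rose in both hairpin groups with no overlap with the controls, by 0.74 (SE 0.10, adjusted p = 0.00187) and 0.71 (SE 0.10, adjusted p = 0.00268).

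Of the 8 tested genes reported as targets of the blood and endothelial complex, ENG, which encodes the TGF-beta co-receptor endoglin, was the one called. It was at 19.65, 20.71 and 25.11 CPM in control, 34.82, 37.33 and 31.06 in shLMO2-1, and 34.96, 34.12 and 33.02 in shLMO2-2 libraries. ENG rose by 0.66 (SE 0.11, adjusted p = 0.00478) and 0.64 (SE 0.11, adjusted p = 0.00525), with all hairpin libraries above the controls. Summed endothelial markers were above control in part of the shLMO2-1 libraries and within the control range in shLMO2-2 (values above). KDR, the largest part of that sum, is also among the 8 target genes. Its difference in shLMO2-1 cells was 0.98 (SE 0.27, adjusted p = 0.0504), with all shLMO2-1 libraries above the controls. The shLMO2-2 libraries, at 6.469 to 8.356 CPM for KDR, lay within the control range of 3.741 to 9.45 CPM. LMX1B and ENG were called in both hairpin groups in every alternative fit.

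SSBP4, the third SSBP adaptor, was at 35.08, 48.84 and 47.79 CPM in control, 55.23, 57.02 and 65.87 in shLMO2-1, and 61.45, 55.24 and 62.04 in shLMO2-2 libraries. It rose in shLMO2-2 cells by 0.44 (SE 0.12, adjusted p = 0.047) and with both hairpins averaged by 0.44 (SE 0.11, adjusted p = 0.0237), and its difference in shLMO2-1 cells was 0.43 (SE 0.12, adjusted p = 0.0523). All 6 hairpin libraries lay above the controls for both SSBP3 and SSBP4. The shLMO2-2 call for SSBP4 was lost without control replicate 1 (0.29, adjusted p = 0.0728) or 3 (0.50, 0.0732), shLMO2-1 replicate 1 (0.44, 0.0604) or 2 (0.43, 0.0759), or shLMO2-2 replicate 1 (0.41, 0.123), 2 (0.48, 0.0862) or 3 (0.40, 0.15), and the call for the mean without shLMO2-2 replicate 3 (0.42, 0.0513). Within a library SSBP3 held 58.5% to 67.6%, SSBP4 25.5% to 35% and SSBP2 4.69% to 7.7% of the counts of the 3 SSBP genes. These shares are not per length, and SSBP3 has longer merged exons than SSBP4. Per length of merged exons SSBP4 was closer to SSBP3, at 57.74 against 71.15 TPM in control cells. The levels were 75.3 against 82.54 TPM in shLMO2-1 and 73.76 against 75.2 TPM in shLMO2-2 cells. SSBP3 in control cells was at 119.5 TPM with median and 84.4 TPM with longest transcript lengths. SSBP4 was not computed with those lengths, so its closeness to SSBP3 holds for merged exons only.

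ID4, an inhibitor that pairs with E proteins, was the most abundant of the ID genes at 388.3 ± 13.7 TPM (SD, n = 3) in control cells. It was at 227.8, 228.5 and 239.4 CPM in control, 267.4, 280.5 and 311.7 in shLMO2-1, and 191.4, 206.9 and 212.4 in shLMO2-2 libraries. As for TCF3, every shLMO2-1 library lay above and every shLMO2-2 library below every control. ID4 rose in shLMO2-1 cells by 0.31 (SE 0.07, adjusted p = 0.0229), differed by -0.19 in shLMO2-2 cells (SE 0.07, adjusted p = 0.119; with scaling by total counts -0.24, adjusted p = 0.0352, which passed), and was lower in shLMO2-2 than in shLMO2-1 cells by -0.49 (SE 0.07, adjusted p = 0.00753). The shLMO2-1 call was lost without control replicate 2 (adjusted p = 0.0613) or 3 (0.0549), or shLMO2-1 replicate 2 (0.064) or 3 (0.0825). ID1, ID2 and ID3 passed in neither comparison with control: their log2 differences in shLMO2-1 and shLMO2-2 cells were 0.32 and 0.35 for ID1, -0.11 and 0.35 for ID2, and -0.19 and 0.04 for ID3.

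**Figure D4:**
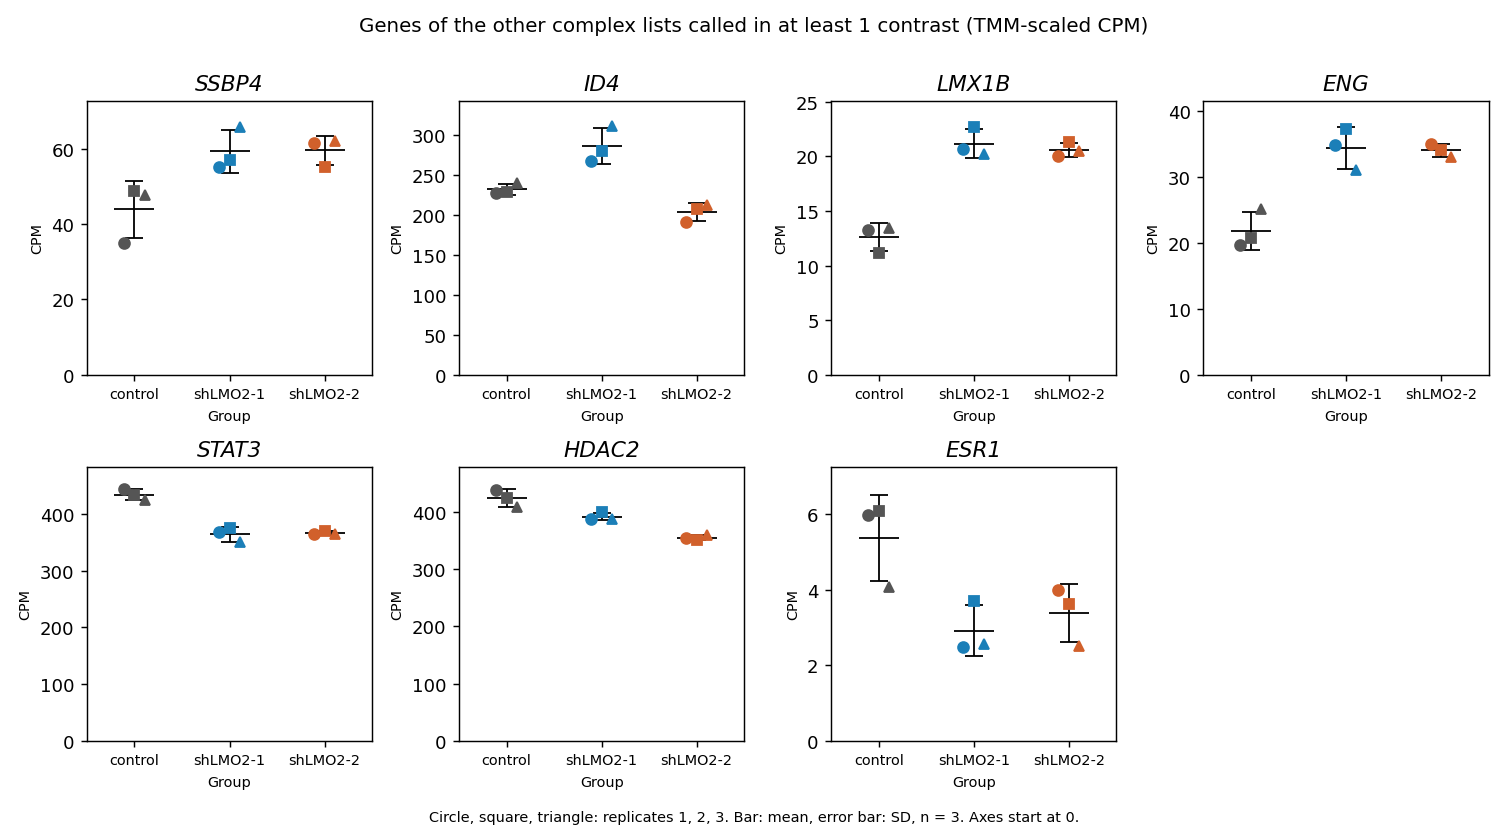
CPM in each library (points, 3 per group, with mean and SD) of those of the 88 further complex genes that passed the test in at least 1 contrast. Each panel has its own scale. LMX1B and ENG are higher and STAT3 is lower in all 6 hairpin libraries than in the controls, whereas ID4 is above control with shLMO2-1 and below it with shLMO2-2.

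None of the 4 tested GATA genes passed in either comparison with control (a fit that changes this for GATA2 is given in the closing section). GATA3, the factor of luminal mammary cells, was the most abundant at 43.39 ± 6.15 TPM (SD, n = 3) in control cells, with log2 differences of 0.15 and 0.19 (adjusted p = 0.351 and 0.22). GATA2, a partner of LMO2 in blood, was at 9.682 to 11.1 CPM in control, 9.899 to 12.53 in shLMO2-1 and 12.66 to 14.07 in shLMO2-2 libraries. Its differences were 0.11 (adjusted p = 0.624) and 0.38 (adjusted p = 0.0714). GATA5 differed by -0.11 and -0.08 and GATA6 by 0.08 and -0.13, and GATA1, the red-lineage factor, and GATA4 had 0 counts.

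Among 11 tested proteins reported to bind LMO2 or LMO4, STAT3, a signal-dependent transcription factor, fell by 0.25 (SE 0.05, adjusted p = 0.0134) in shLMO2-1 and by 0.24 (SE 0.05, adjusted p = 0.0164) in shLMO2-2 cells. It was at 423.6 to 442.9 CPM in control, 349.5 to 375.2 in shLMO2-1 and 364.7 to 370 in shLMO2-2 libraries. These calls were lost without shLMO2-1 replicate 3 (adjusted p = 0.057) for shLMO2-1, and without shLMO2-2 replicate 1 (0.0506), 2 (0.0584) or 3 (0.055) for shLMO2-2. ESR1, the oestrogen receptor, was low at 4.071 to 6.099 CPM in control, 2.475 to 3.692 in shLMO2-1 and 2.516 to 4.001 in shLMO2-2 libraries. The hairpin libraries all lay below the controls. ESR1 fell with both hairpins averaged, by 0.78 (SE 0.21, adjusted p = 0.0341), while the differences of -0.88 (SE 0.25, adjusted p = 0.0546) in shLMO2-1 and -0.67 (SE 0.24, adjusted p = 0.114) in shLMO2-2 cells did not pass. The call for the mean was lost without control replicate 1 (adjusted p = 0.0884) or 2 (0.108), shLMO2-1 replicate 1 (0.0664) or 3 (0.0679), or shLMO2-2 replicate 2 (0.0608) or 3 (0.0586).

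HDAC2, a deacetylase of corepressor complexes, was the 1 of 7 tested corepressors called. It was at 408.6 to 439.6 CPM in control, 388.3 to 400 in shLMO2-1 and 350.8 to 360.5 in shLMO2-2 libraries. HDAC2 fell in shLMO2-2 cells by 0.26 (SE 0.05, adjusted p = 0.0124), and the difference in shLMO2-1 cells was -0.11 (adjusted p = 0.2). With both hairpins averaged it fell by 0.18 (adjusted p = 0.0203). The shLMO2-2 call was lost without shLMO2-2 replicate 2 (adjusted p = 0.0585), and that for the mean without control replicate 2 (0.0509). None of the 5 tested coactivators and 2 tested tissue-restricted bHLH genes was called in any contrast. The tested bHLH genes were TWIST2, at 19.53 ± 0.612 TPM in control cells, and ASCL2, at 2.643 ± 3.09 TPM (SD, n = 3). The other 16 of the 18 bHLH genes listed were not tested.

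The genes whose log2 CPM tracked each member most closely over the 9 libraries are given as a description, among about 11030 genes with a mean of at least 5 CPM. For TCF3 these were CYYR1 (Pearson r = 0.973), MMP7 (0.973) and P3H2 (0.963). For LMO4 they were DENND1A (0.935), GCH1 (0.925) and CYP1A1 (0.917), and for LDB1 ZNF33A (0.96), CRTC1 (0.934) and FOXRED2 (0.924). For LMO2, with its 1 to 35 counts per library, they were MYNN (0.971), SNX7 (0.968) and WNT10A (0.949). The 9 points of each share their groups and libraries, and the best of many genes over 9 points is high by selection.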

How the data were processed

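RNA was selected for poly(A) tails and made into libraries with an NEBNext Ultra II kit, per the labels' protocols. The authors deposited 1 table of estimated counts per gene symbol for 9 libraries, in which 11.67% to 12.81% of a library's values were not whole. The submitters' processing notes name Salmon 0.12, DESeq2 1.22.2 and GRCh38.p12, with no roles. Annotation and strand use are not given in the sources used here, so overlapping genes are uncertain.

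The estimated counts were rounded and tested with edgeR 4.0.16 in R 4.3.3 (TMM scaling, filterByExpr with minimum count 10 and minimum total 15, members with any count added back, 14711 genes tested, quasi-likelihood fit over the 3 groups). A call is a Benjamini-Hochberg adjusted p under 0.05 over all tested genes. SE was derived from the fold change and F. Permutation tests used log2(CPM + 0.5). Coordinates and lengths came from GENCODE 29, matched by symbol (56809 of 56809 matched, 219 with several IDs), and upstream sequences from RefSeq. No pair of libraries of a group was a duplicate, and the fit was tested on simulated data.

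All 10 members were named. From the other lists, genes called in any contrast and the LIM-only, GATA, E protein and ID genes were named, along with the 3 genes most correlated with LMO4, LDB1, TCF3 and LMO2. KDR, TWIST2, ASCL2 and single cell-type markers were also named, after their values were seen. Members and lists were chosen with earlier results of these data known. Alternatives were other scalings (median of ratios, upper quartile, total counts), other filters, limma-voom (limma 3.58.1), DESeq2 1.42.0, fits of only the compared groups, a block for replicate number, other gene lengths and leaving out each library. Leaving out libraries for the counts over the other lists was added after seeing the data.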

Additional observations from a re-analysis of the deposited data

Results flagged for a closer look

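The hairpin groups differed in TCF3, which was lower in shLMO2-2 than in shLMO2-1 cells by -0.51 on the log2 scale (adjusted p = 0.00154 by edgeR's quasi-likelihood test of the difference). ID4 differed in the same way, by -0.49 (adjusted p = 0.00753).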

How the results depend on the processing

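Among counts of members called, the shLMO2-1 count of 2 became 1 with upper-quartile scaling and with total counts, 0 with only the groups compared, and 0 to 2 with 1 library left out. The shLMO2-2 count of 2 became 1 when no member was added back to the filter, in limma-voom and with only the groups compared, and 1 to 2 with 1 library left out. The count of 2 for the mean became 1 when no member was added back, and 0 to 2 with 1 library left out. The 4 called genes of the other lists in shLMO2-1 became 9 with no filter and 3 to 6 with 1 library left out. The 5 in shLMO2-2 became 2 to 6, the 6 for the mean 4 to 6, and the 1 between hairpins became 3 with no filter and remained 1 with 1 library left out.

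LMO2 in shLMO2-1 cells passed with no filter (-2.43, adjusted p = 0.0253). In shLMO2-2 cells it was -2.67 in limma-voom and -3.03 with only the groups compared, and lost the call in both. With 1 library left out, LMO2 ranged from -3.47 to -1.74 in shLMO2-1, -3.48 to -2.32 in shLMO2-2, -3.25 to -2.03 for the mean and -1.002 to 0.449 between hairpins. Uncalled differences that changed sign were ID3 in shLMO2-2 (-0.0077 with total counts, -0.0279 to 0.1121 with 1 library left out), GATA6 (-0.0399 to 0.1366), ID2 (-0.1884 to 0.0128), GATA5 (-0.2397 to 0.1365) and SSBP2 (-0.0168 to 0.183) in shLMO2-1, and GATA5 in shLMO2-2 (-0.2117 to 0.1645). SSBP4 in shLMO2-2 lost its call with upper-quartile scaling (adjusted p = 0.0541), total counts (0.0536) and only the groups compared (0.079). ID4 in shLMO2-1 lost its call with only the groups compared (0.0517), and HDAC2 for the mean with no filter (0.0581).

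Replicate numbers are shared by the groups, and deviations from the group means followed the number in part. Correlations between groups were 0.233 to 0.296 for number 1, -0.064 to 0.052 for number 2 and 0.14 to 0.212 for number 3. Between numbers 1 and 3 they were -0.307 to -0.153. The main fit has no block for the number, so it does not take up this shared part. With a replicate block, LMO2 in shLMO2-1 passed (-2.30, adjusted p = 0.0417), as did SSBP2 (0.43, 0.0333), ID4 (-0.19, 0.0351) and GATA2 (0.39, 0.0251) in shLMO2-2, and called genes of the other lists numbered 10 in shLMO2-1 and 9 in shLMO2-2. Each library's highest correlation with a library of another group was at its own number, except for control replicate 2. Another scaling moved the median of all genes by at most -0.048. Depth limits LMO2 (1 to 35 counts) and the 4 members at 0 to 1 counts.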
